A study of Mus musculus with 4 samples.

Results

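The p53 control loop and the GADD45 family were followed through 10 genes in MA-10 cells after cordycepin treatment. They were Trp53, its inhibitors Mdm2, Mdm4 and Ppm1d, the p53 targets Ccng1, Zmat3 and Sesn1, and the GADD45 genes Gadd45a, Gadd45b and Gadd45g. They were chosen by name, with earlier results of these data known, so their counts of calls beside those of all genes are no test. Every probe whose gene symbol equalled 1 of these names was taken, which gave 13 probes of the 26423 on the array. The array carried 19718 named genes, of which 18478 could be tested, all 10 among them.
MA-10 cells are 1 clonal line from a mouse Leydig cell tumor, and both groups came from it. Control cells received vehicle and the treated cells 100 μM cordycepin, an adenosine analog without the hydroxyl group at the 3′ position of the sugar, and both were harvested after 3 hours. The vehicle is PBS in the sample labels but DMSO in the methods, and 1 label on RNA extraction gives the cordycepin concentration as 20 mg/mL. Total RNA of each group was measured on 2 one-colour Mouse OneArray arrays, H001 and H002 for the control and H003 and H004 for cordycepin. No source says whether the duplicates were grown separately, and the p-values therefore cover array-to-array spread that may be technical. In RNA from whole cultures, a lower signal through fewer expressing cells cannot be told apart from less RNA per cell.
The protein p53 is a transcription factor that accumulates after DNA damage and other stress and induces genes for cell cycle arrest, DNA repair and apoptosis. Among the genes it induces are its own inhibitors. Mdm2 is the ubiquitin ligase that marks p53 for degradation, Mdm4 is a relative of Mdm2 that binds p53 and blocks its activity, and Ppm1d, also called Wip1, is a phosphatase that removes activating phosphates from p53 and from the kinases above it. The GADD45 proteins are small stress-induced proteins that bind the kinase Map3k4, cyclin B1 with Cdk1, and PCNA, and so connect stress with p38 and JNK signaling and the cell cycle.
Levels are given as the authors' normalized intensity, in arbitrary units, and a level of 1 probe cannot be set against that of another. Differences are log2 ratios of cordycepin over control, the folds are ratios of geometric means, and a gene was called at an adjusted p under 0.05 (limma, Benjamini-Hochberg over 24319 probes). Detected means a detection p-value under 0.05 on that array. The spread was pooled over all probes, so that each log2 ratio had the same standard error of 0.407 and a 95% confidence interval of 0.80 to either side. The arrays detected 12193 to 13415 probes each, and the median gap between duplicates was 0.50 in log2 intensity for the control arrays and 0.03 for the cordycepin arrays, H001 minus H002 and H003 minus H004, against 0.14 and -0.26 in the raw intensities. The median log2 ratio over all probes was -0.10, and it moved to 0.24 when each array was centred on its median, to 0.13 with quantile normalization and to -0.41 when centred on the ribosomal protein genes. Of the Leydig cell markers, 4 of 6 were detected on all arrays, among them Hsd3b1, an enzyme of steroid synthesis, with a log2 ratio of -0.18, and 1 was detected on none. Nr5a1, a transcription factor of steroid-producing cells, was called lower (log2 ratio -1.13, adjusted p = 0.0392, limma), and Star, which carries cholesterol into mitochondria, had a log2 ratio of -1.08 (adjusted p = 0.0543). The summed Leydig marker level was 16145 to 22736 on the control arrays and 13302 to 14877 on the cordycepin arrays. Of 13 markers of other testis cells, 5 were detected on all arrays and 5 on none (Amh, Fshr, Dazl, Acta2 and Myh11). Their summed level was 3210 to 4719 on the control arrays and 3925 to 4099 on the cordycepin arrays. It was carried mostly by Amhr2, which is also in Leydig cells, so the sum does not show that other testis cells were present. Of the 13 markers, Sox9 was called lower (adjusted p = 2.24e-08, limma). It had no detected signal in treated cells and was 3.65-fold lower against the lowest detected intensity. The part of these shifts in the results below was not tested.
Cordycepin-treated cells had lower mRNA levels of Ppm1d, Gadd45a, Mdm2, Sesn1 and Gadd45g, by 11.8-, 9.47-, 5.65-, 5.16- and 4.72-fold, respectively. None of the 10 genes was called higher. With each gene taken by its brightest probe, 5 of 10 genes were called lower, against 14.6% of all genes tested, and 0 of 10 higher, against 0.942% of all genes. Among genes detected on both control or both cordycepin arrays, 5 of 9 were called lower, against 22.1%. Both cordycepin arrays were below both control arrays for 9 of 10 genes, against 35.5% of all genes, the exception being Ccng1. The median log2 ratio was -1.56 over the 10 genes and -0.13 over all genes tested. With each array centred on its median, 8 of 10 genes were called lower, against 19.8% of all genes, and 0 higher, against 19.9%. Those 8 include Mdm4, which no array detected. Without control array H002, 9 of 10 genes, all but Ccng1 and with the undetected Mdm4 among them, were called lower, against 29.8% of all genes. With 50 added to each intensity before taking logarithms, 0 genes were called in either direction in limma, while an unadjusted p under 0.05 was reached by 7 of 10 genes toward lower and by 0 toward higher. Without that offset, an unadjusted p under 0.05 was reached by 8 genes toward lower, the undetected Mdm4 among them, and 0 toward higher in limma. In the methods' t-test it was reached by 6 and 0 genes, against 2551 and 133 of all 18478 genes. The limma counts at an unadjusted p, with and without the offset, have no such share beside them and are no result about the 10 genes.

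**Figure D1:**
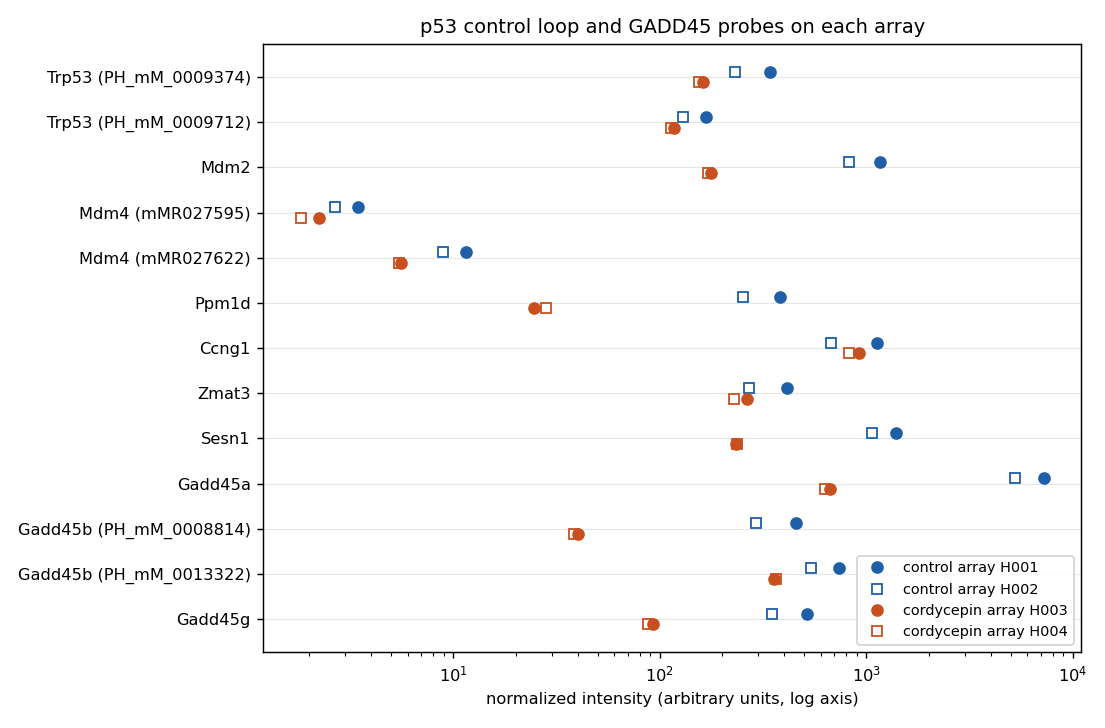
Normalized intensity (log axis, arbitrary units) of the 13 probes on each array, with control arrays in blue and cordycepin arrays in orange, filled for the first and open for the second array of a group. The orange points lie left of the blue points for every probe except that of Ccng1, and the distance is widest for Ppm1d, Gadd45a and 1 Gadd45b probe.

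Trp53 was measured by 2 probes. The brighter probe, PH_mM_0009374, which is annotated to both listed Trp53 transcripts, read 340.0 and 230 on the control arrays and 161 and 155 on the cordycepin arrays. Its groups did not overlap, with the cordycepin arrays close together after the authors' scaling. The log2 ratio was -0.82 (95% interval -1.62 to -0.02) with an adjusted p of 0.216 in limma, past the threshold neither here nor with quantile normalization, where the log2 ratio was 0.01. With each array centred on its median it was -0.48 and the adjusted p was 0.0282. The other probe, PH_mM_0009712, is annotated to 1 of those transcripts and read 167 and 130 on the control arrays and 117 and 114 on the cordycepin arrays. Its log2 ratio was -0.35 (adjusted p = 0.827, limma), and 0.46 with quantile normalization (adjusted p = 0.0305, limma). No direction is therefore given for Trp53.
The genes for the inhibitors of p53 showed the greatest decrease in Ppm1d. Its probe read 380.1 and 254 on the control arrays and 24.4 and 28.2 on the cordycepin arrays, a change from 317 ± 89.2 to 26.3 ± 2.64 (mean ± SD, n = 2 arrays each). The cordycepin arrays were at the limit of detection, with detection p-values of 0.0497 on H003 and 0.0242 on H004. Ppm1d fell by 3.57 on the log2 scale (11.8-fold, adjusted p = 2.69e-16, limma), a value that only 0.882% of the genes tested reached or passed. Mdm2 read 1162 and 828 on the control arrays and 177 and 171 on the cordycepin arrays. The groups were far apart and, after the authors' scaling, the cordycepin arrays were nearly level. The mean went from 995 ± 236 to 174 ± 4.07 (SD, n = 2 arrays each), and Mdm2 fell by 2.50 on the log2 scale (adjusted p = 2.68e-08, limma). After centring each array on its median, the log2 ratios were -3.23 for Ppm1d and -2.16 for Mdm2.
Mdm4 was represented by 2 probes of the same transcript, and neither was detected on any array. Probe mMR027622 read 11.4 and 8.88 on the control arrays and 5.56 and 5.45 on the cordycepin arrays, and probe mMR027595 read 3.43 and 2.66 against 2.22 and 1.82. The lowest intensity that counted as detected was between 19.5 and 25.2 on the 4 arrays, so these values give no level of Mdm4 and no fold.
Of the 3 p53 targets outside the GADD45 family, Sesn1 was called lower and Zmat3 and Ccng1 were not. Sesn1, which encodes a sestrin that restrains mTORC1 signaling, read 1386 and 1062 on the control arrays and 233 and 237 on the cordycepin arrays. After the authors' scaling the duplicates were close in the treated cells, and both lay far below the controls. Sesn1 fell by 2.37 on the log2 scale, from 1224 ± 229 to 235 ± 2.79 (SD, n = 2 arrays each), with an adjusted p of 1.67e-07 in limma and a log2 ratio of -2.03 after median centring.
Zmat3, a zinc finger protein that binds RNA, read 413 and 269 on the control arrays and 263 and 228 on the cordycepin arrays. The lower control array and the higher cordycepin array were nearly level. The log2 ratio was -0.44 (95% interval -1.24 to 0.35, adjusted p = 0.692, limma), -0.11 with median centring, 0.03 with cyclic loess and 0.37 with quantile normalization (adjusted p = 0.0502).
Ccng1, cyclin G1, recruits the phosphatase PP2A and takes part in the control of Mdm2. It read 1129 and 671 on the control arrays and 926 and 822 on the cordycepin arrays. Both cordycepin values lay between the control values. The log2 ratio was 0.00 (95% interval -0.80 to 0.80, adjusted p = 0.997, limma), 0.34 with median centring (adjusted p = 0.136) and -0.31 with ribosomal protein centring. An interval of this width does not show that Ccng1 was the same in both groups.
All GADD45 genes had at least 1 probe that was called lower. Gadd45a, the p53-induced member of the family, was bright in the control cells, with 7234 and 5221 on the control arrays and 669 and 630.0 on the cordycepin arrays. The mean changed from 6227 ± 1423 to 649 ± 27.5 (SD, n = 2 arrays each), so that 10.6% of the control level was left on the scale of geometric means. Gadd45a fell by 3.24 on the log2 scale (adjusted p = 1.40e-13, limma), and its log2 ratio was -2.90 with median centring. Gadd45g, which responds to cytokines and is needed for testis determination in the mouse, read 516 and 348 on the control arrays and 92.2 and 87.3 on the cordycepin arrays. The groups were well apart. Gadd45g fell by 2.24 on the log2 scale, from 432 ± 119 to 89.7 ± 3.50 (SD, n = 2 arrays each), with an adjusted p of 8.81e-07 in limma and a log2 ratio of -1.90 with median centring.
Gadd45b, the member that is induced by NF-κB and inhibits Map2k7, gave 2 answers. Probe PH_mM_0008814 read 458 and 292 on the control arrays and 40.0 and 38.2 on the cordycepin arrays. Probe PH_mM_0013322 read 740 and 542 on the control arrays and 359 and 366 on the cordycepin arrays. Both were detected on all 4 arrays and are annotated to the same transcript, and in both the groups did not overlap. The first probe fell by 3.23 on the log2 scale (9.36-fold, adjusted p = 1.90e-13, limma), whereas the second, which is the brightest probe and stands for the gene in the counts, had a log2 ratio of -0.80 (adjusted p = 0.234, limma). The probes thus differed by 2.42 in log2 ratio, against 0.47 for the Trp53 probes. With median centring the second probe had a log2 ratio of -0.47 and an adjusted p of 0.0255, and with quantile normalization -0.09 and 0.390 (limma). Taking the mean over both probes, the log2 ratio of Gadd45b was -2.01 (adjusted p = 4.37e-06, limma), and 6 of 10 genes were then called lower. The size of the change of Gadd45b therefore depended on the probe.

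**Figure D2:**
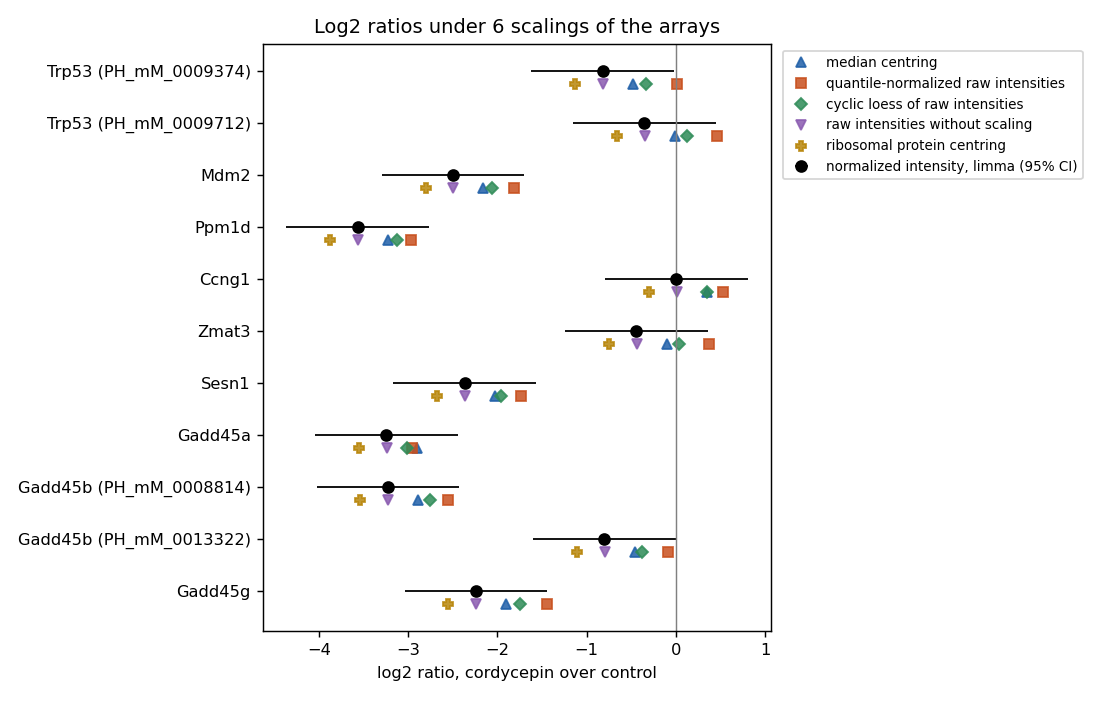
Log2 ratio of cordycepin over control for the 11 probes detected on the arrays, with the limma estimate and its 95% confidence interval in black and the ratio under 5 other scalings of the arrays in colour. The ratios of Mdm2, Ppm1d, Sesn1, Gadd45a, Gadd45g and Gadd45b probe PH_mM_0008814 stay below -1 under each scaling, whereas those of Ccng1, Zmat3 and both Trp53 probes lie on both sides of 0.

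The 5 genes called lower were set against the scaling of the arrays and the loss of an array. Over the 5 other scalings the log2 ratio ran from -3.87 to -2.97 for Ppm1d, from -3.55 to -2.90 for Gadd45a and from -2.81 to -1.81 for Mdm2. It ran from -2.67 to -1.74 for Sesn1 and from -2.55 to -1.44 for Gadd45g. The adjusted p of these genes was at most 0.0119 under those scalings and at most 0.00698 when any 1 array was left out (limma), where the lone array of a group was assumed to vary like the duplicates of the other group. The duplicates of the 9 detected genes were 0.38 to 0.75 apart on the log2 scale in the control cells, with H001 above H002 for every gene, and 0.02 to 0.38 apart in the raw intensities. In the treated cells the gaps, H003 minus H004, were between -0.21 and 0.21, and between -0.49 and -0.08 in the raw intensities. The duplicates thus lay closer together in the treated than in the control cells only after the authors' scaling, with medians of 0.05 and 0.56, against -0.24 and 0.20 in the raw intensities.
The bases before the annotated start of the genes are shown for the inhibitors and GADD45 genes with a probe called lower, as the annotated sequence nearest to the genes described above. They are the 250 bases upstream of the start, from RefSeq for build GRCm38.p6, 5′ to 3′ on the strand of the gene, with capitals for matches to 4 motifs searched on both strands. The motifs were the TATA box TATAAA, the CCAAT box CCAAT, the cyclic AMP response element TGACGTCA and the degenerate 10-base half-site of p53, and no matches overlapped in these genes.
Ppm1d, chr11:85311004-85311253, plus strand: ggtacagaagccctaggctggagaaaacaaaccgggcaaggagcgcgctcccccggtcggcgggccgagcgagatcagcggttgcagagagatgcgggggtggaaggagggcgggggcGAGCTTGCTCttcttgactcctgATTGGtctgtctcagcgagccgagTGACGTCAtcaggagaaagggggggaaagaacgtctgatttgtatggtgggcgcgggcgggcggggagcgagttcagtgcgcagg
Mdm2, chr10:117710759-117711008, minus strand: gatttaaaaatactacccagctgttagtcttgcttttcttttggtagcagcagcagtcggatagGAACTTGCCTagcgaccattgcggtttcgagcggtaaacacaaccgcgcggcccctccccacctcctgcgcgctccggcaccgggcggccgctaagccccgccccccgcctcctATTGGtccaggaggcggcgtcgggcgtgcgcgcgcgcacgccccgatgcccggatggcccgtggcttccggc
Gadd45a, chr6:67037408-67037657, minus strand: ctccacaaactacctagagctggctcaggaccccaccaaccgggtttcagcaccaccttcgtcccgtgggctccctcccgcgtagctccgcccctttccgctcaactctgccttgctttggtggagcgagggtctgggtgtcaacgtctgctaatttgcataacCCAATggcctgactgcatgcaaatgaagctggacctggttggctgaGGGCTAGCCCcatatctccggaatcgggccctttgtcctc
Gadd45b, chr10:80929841-80930090, plus strand: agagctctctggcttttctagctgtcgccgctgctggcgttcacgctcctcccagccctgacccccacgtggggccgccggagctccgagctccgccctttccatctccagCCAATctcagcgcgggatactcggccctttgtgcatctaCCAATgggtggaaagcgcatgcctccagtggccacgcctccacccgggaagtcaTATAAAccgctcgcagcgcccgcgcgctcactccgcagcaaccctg
Gadd45g, chr13:51846425-51846674, plus strand: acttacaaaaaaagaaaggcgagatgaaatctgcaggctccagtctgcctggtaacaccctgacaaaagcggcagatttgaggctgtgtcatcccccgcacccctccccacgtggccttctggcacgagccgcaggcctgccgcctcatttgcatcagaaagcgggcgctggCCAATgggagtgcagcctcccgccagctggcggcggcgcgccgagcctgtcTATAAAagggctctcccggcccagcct
The p53 half-site was found at -132 to -123 from the start in Ppm1d, at -186 to -177 in Mdm2 and at -40 to -31 in Gadd45a, and neither in Gadd45b nor in Gadd45g. It was in 6 of 11 promoter sequences, which belong to 9 of the 10 genes, and in 7.13% of 32851 mouse promoters of the same length. The 6 promoters were those of Mdm2, Ppm1d, Gadd45a and, at 1 of its 2 starts, Sesn1, which were called lower, and Trp53 and Ccng1, which were not. TATAAA stood at -46 to -41 in Gadd45b, at -27 to -22 in Gadd45g, and on the opposite strand at -248 to -243 in Trp53, and was in 12.4% of all promoters. CCAAT was present in 9 of 11 promoters, all but those of Mdm4, and in 33.8% of all promoters. TGACGTCA was found only in Ppm1d, at -85 to -78, and in 1.55% of all promoters. A match describes the letters alone and is not evidence of binding, and the lack of a match says only that these letters are not in the window.

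**Figure D3:**
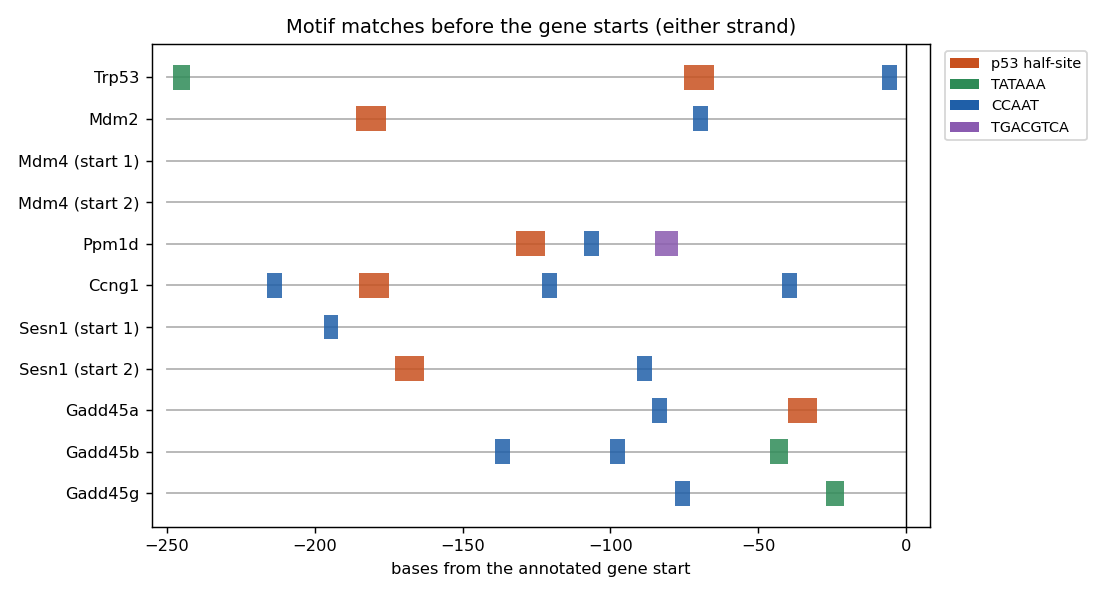
Position of matches to 4 motifs (boxes, either strand) in the 250 bases before each annotated start, in bases from the start, for the 9 genes with a sequence and 11 starts. The p53 half-site appears in 6 starts and the CCAAT box in 9, and neither Mdm4 start holds a match.

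The genes around the loop were counted from lists of known p53 targets, regulators of p53, GADD45 partners and relatives of the 10 genes. Of 32 other p53 targets tested, 12 were called lower and 1 higher, against 14.6% lower and 0.942% higher of all genes tested. The other 19 passed in neither direction. Of the 25 detected on both control or both cordycepin arrays, 12 were called lower, against 22.1% of all genes that met the same condition. A gene could meet it through its control signal alone, as Fbxw7 and Sesn2 did. Over the 32 genes the median log2 ratio was -0.59, against -0.13 over all genes. Bcl6, a transcriptional repressor, fell from 1853 ± 413 to 176 ± 4.36 (SD, n = 2 arrays each), a log2 ratio of -3.38. Gdf15, a stress-induced secreted factor, had a log2 ratio of -2.85, and Polk, a translesion DNA polymerase, of -2.30. Fbxw7, the substrate receptor of a ubiquitin ligase, read 195 and 106 on the control arrays and was not detected in treated cells. It was 6.34-fold lower against the lowest detected intensity. The adjusted p of these 4 genes was at most 4.21e-07 (limma). The 1 gene called higher was Btg2, an antiproliferative gene, whose probe was detected on no array, so that it has no fold. Of the 12 called lower, Fdxr, which read 7877 and 6007 on the control arrays and 7146 and 822 on the cordycepin arrays, was low on H004 only, and its adjusted p was 0.434 with median centring (limma). The arrest gene Cdkn1a, encoding p21, read 4158 and 3204 on the control arrays and 1949 and 1693 on the cordycepin arrays. Its groups did not overlap, and its log2 ratio of -1.01 had an adjusted p of 0.0848 (limma). With median centring the log2 ratio of Cdkn1a was -0.67 and the adjusted p 0.0215 (limma).
Of 28 regulators and cofactors of p53 tested, 8 were called lower and 1 higher, against 14.6% and 0.942% of all genes, and the median log2 ratio was -0.44. Of the 28, 24 were detected on both control or both cordycepin arrays. Of these 24, 8 were called lower, against 22.1% of all genes that met the same condition. A gene could meet it through its control signal alone, as Sirt1, Ppp1r13b and Trp53bp2 did. That the genes called lower were all among the detected is therefore partly built in. Fewer of the 28 were called lower without H003 or without H004, as was also the case over all genes. The acetyltransferase gene Ep300 read 562 and 374 on the control arrays and 66.7 and 70.0 on the cordycepin arrays, a log2 ratio of -2.75 (adjusted p = 6.55e-10, limma). The deacetylase gene Sirt1 had no detected signal in treated cells. Nor had Ppp1r13b and Trp53bp2, which encode proteins of the ASPP family that bind p53. Against the lowest detected intensity these 3 genes were 5.23-, 4.32- and 1.64-fold lower, respectively. The gene called higher was the checkpoint kinase Chek2, with 1.14 on control array H001 against 168, 216 and 193 on the other arrays. Only H001 was low, and the adjusted p was 0.270 with median centring (limma).
Among 14 binding partners of the GADD45 proteins and kinases of their cascade, 5 were called lower and 0 higher, against 14.6% and 0.942% of all genes. The median log2 ratio was -0.95. Of the 14 genes, 13 were detected, and 5 of the 13 were called lower, against 22.1% of all detected genes. Ccnb1, cyclin B1, had a log2 ratio of -1.61 and Map3k4, the kinase that GADD45 proteins activate, of -1.45. Mapk14, which encodes p38α, had a log2 ratio of -1.31 and Map2k7, a kinase that acts on JNK, of -1.20. The adjusted p was 0.000900 for Ccnb1 and 0.0246 for Map2k7 (limma). The fifth gene was Map2k4, with a log2 ratio of -1.11 and an adjusted p of 0.0455 (limma). No gene of this list was higher at an unadjusted p under 0.05 either, in limma or by the methods' t-test. For the fits with an array left out, the shares of all genes given below are at an adjusted p under 0.05. The counts of this list at an unadjusted p in those fits have no such share beside them. They cannot be set against these shares and are no result about this list. None of the 5 was called when either cordycepin array was left out, where 4 genes without H003 and 3 without H004 were lower at an unadjusted p under 0.05 (limma), while 10 of 14 genes were called lower without H002. The share of all genes called lower was 7.8% without H003, 7.27% without H004 and 29.8% without H002.
Of 19 relatives of the 10 genes, 3 were called lower and 0 higher, none was higher at an unadjusted p under 0.05 in limma or by the methods' t-test, and the median log2 ratio was -0.51. This count was close to the 14.6% of all genes called lower and is no result about the relatives. Ccng2, the relative of Ccng1, read 934 and 602 on the control arrays and 193 and 163 on the cordycepin arrays, a log2 ratio of -2.08 (adjusted p = 6.50e-06, limma). Ccng1 itself had a log2 ratio of 0.00, so the cyclin G genes differed, but this difference was not tested. Zmat1 had a log2 ratio of -1.67. Sesn2, which is also among the p53 targets, had no detected signal in treated cells and was 1.38-fold lower against the lowest detected intensity. Median centring changed the split of calls in these lists to 12 lower and 3 higher among the p53 targets, 9 and 6 among the regulators, 8 and 1 among the GADD45 partners and 7 and 3 among the relatives, against 19.8% lower and 19.9% higher of all genes. Without H002 the counts of genes called lower were 17, 13, 10 and 11 in the same order, against 29.8% of all genes.

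**Figure D4:**
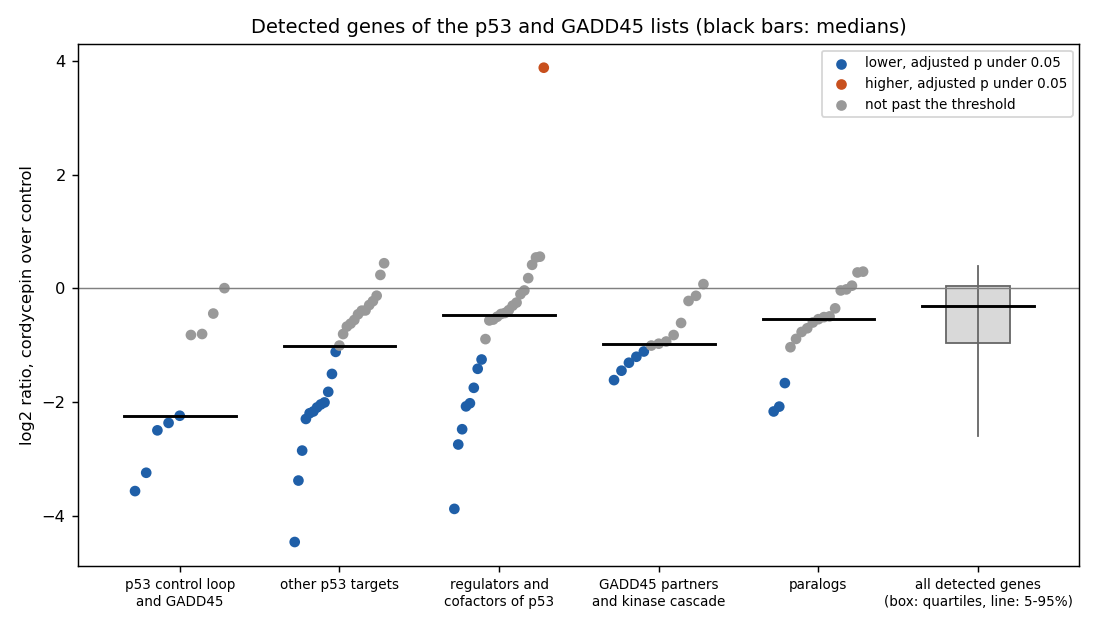
Log2 ratio of cordycepin over control (limma) for the detected genes of the p53 control loop and GADD45 set and of 4 lists around it, 1 point a gene, blue where called lower, orange where called higher and gray otherwise, with black bars for medians. The box at the right gives the quartiles and the line the 5th to 95th percentile of the 11283 detected genes. The median of the 9 detected genes is -2.24, against -0.30 for all detected genes.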

How the data were processed

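The arrays were processed by the authors, who deposited for each probe and array a raw intensity after background subtraction, a normalized intensity, which is the raw intensity times 1 constant per array (0.888 to 1.14), a detection p-value and a score, the spot flag, which was not used as a filter. The scanner software and the method behind the constants are not given in the sources used here. The authors' table also holds their own mean, coefficient of variation, log2 ratio and p-value for the comparison of the groups, which were not used. Normalized intensities were taken as log2, and the 2 control and 2 cordycepin arrays were compared with limma 3.58.1 in R 4.3.3 (default lmFit and eBayes) and Benjamini-Hochberg adjustment over the 24319 probes above 0 on all arrays. The precision is limited by the number of arrays. The variance was pooled completely over the probes, so that a log2 ratio of 1.10 or more in size was called. A gene was counted by its brightest probe, and 237 probes with several symbols and 3633 with none were left out of the counts. Where no array of a group detected the probe, each value of that group below its array's lowest detected intensity was set to that intensity. A fold given against it is not a strict lower bound, because detection was not a fixed intensity cut. The marker Csf1r read 26.7 on H003 and 23.6 on H004, above their lowest detected intensities of 24.4 and 20.9. It was detected on only 1 of these 2 arrays. The script was tested on simulated data.
The 10 genes and the lists around them were chosen with earlier results of these data known. Named were the 10 genes with all their probes, and from each list up to 4 genes called lower and 4 called higher with the greatest log2 ratio in size among the detected, with an undetected one only where its count was 5 or fewer. Fdxr, Cdkn1a, Map2k4, Star, Hsd3b1 and Amhr2 fall outside that rule and were named after their values were seen. Also outside it are Amh, Fshr, Dazl, Acta2 and Myh11, named as markers that no array detected, and Csf1r, named for its detection. Symbols are those of the array, on which Tigar, Pidd1, Kat8 and Cop1 carry older names. Promoter sequences were matched by symbol for 9 of the 10 genes. The alternatives were other scalings of the arrays, an offset of 50, detected probes only, an intensity trend, the methods' t-test, the study's thresholds, the mean over the probes of a gene and leaving out each array in turn.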

Additional observations from a re-analysis of the deposited data

How the results depend on the processing

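Direction and call of Mdm2, Ppm1d, Sesn1, Gadd45a and Gadd45g held under the scalings, the detected probes, the intensity trend, the study's thresholds and the loss of any 1 array. With an offset of 50 their log2 ratios were -2.20, -2.24, -2.15, -3.15 and -1.76, no longer past the threshold (adjusted p 0.0833 to 0.0867, limma), and the first Gadd45b probe had -2.23. Under the methods' t-test adjusted by Benjamini-Hochberg, the log2 ratios stayed at -2.50, -3.57, -2.37, -3.24 and -2.24 and the adjusted p was 0.320. Both settings called 0 of 10 genes and 0 genes of the array, while the unadjusted t-test called 6 of 10 lower, against 2551 of all 18478 genes. Median centring called 8 of 10 genes lower, against 19.8% of all genes. Ribosomal protein centring called 9 lower, against 8564 of all 18478 genes. The undetected Mdm4 was among them in both. The brighter Trp53 probe passed at -0.48 with median centring and -1.13 with ribosomal protein centring and turned to 0.013 with quantile normalization; the other turned to 0.46 there and to 0.12 with loess. Zmat3 turned to 0.37 with quantile normalization and 0.029 with loess and passed at -0.75 with ribosomal protein centring, where Ccng1 turned to -0.31. The second Gadd45b probe passed at -0.47 with median centring, -0.38 with loess and -1.11 with ribosomal protein centring. With 1 array left out, the log2 ratio ran from -1.10 to -0.54 for the brighter Trp53 probe, -0.37 to 0.38 for Ccng1, -0.75 to -0.13 for Zmat3 and -1.03 to -0.58 for the second Gadd45b probe, and the count of genes called lower from 5 to 9, the 9 without H002. Over the whole array, 1344 to 5506 genes were then lower and 46 to 1396 higher. Genes lower over the array numbered 8564 with ribosomal protein centring, and genes higher 3683 with median centring, 4115 with quantile normalization, 2067 with loess and 89 among detected probes. The cause of these changes was not tested. Probes near background, such as Ppm1d in treated cells, limit the folds. No paired analysis was possible because the labels give no shared replicate numbers.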
